A study of Saccharomyces cerevisiae with 22 samples.

Results

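The genes described here encode enzymes with which baker's yeast builds histidine, leucine, isoleucine and valine, lysine, tryptophan and the other aromatic amino acids, and arginine, together with GCN4, the transcription factor that activates many of them. They were chosen by name, as a list of 40 genes in 7 pathways plus GCN4, and 39 of the 40 had a probe set of their own among the 5449 genes measured. TRP1 was not analysed here. Total RNA came from Saccharomyces cerevisiae CEN.PK113-1A, a prototrophic haploid strain of mating type alpha, grown in glucose-limited chemostats in which the feed rate fixes the growth rate. The oxygen content of the gas was 0% (4 arrays), 0.5% (4 arrays), 1% (6 arrays), 2.8% (4 arrays) or 20.9% (4 arrays), and the strain, medium feed, pH and temperature were the same at every level. Cultures given 2.8 or 20.9% oxygen tended to oscillate, and for this reason extra growing cells were added to them when the feed was started. The arrays of each level came from 4 cultivations at 0, 1 and 20.9% and from 2 cultivations at 0.5 and at 2.8% oxygen, so several arrays shared a chemostat. The labels do not say which arrays these are, and the p-values below measure partly the variation within 1 culture. Cells of replicates 2 and 4 at 2.8% were spun down directly according to their labels, and all other samples went into cold buffer first.

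Yeast responds to a shortage of almost any amino acid by general amino acid control. Uncharged tRNA activates the kinase Gcn2, translation in general slows, and translation of GCN4 mRNA rises because ribosomes pass over the short reading frames in its leader. Gcn4 protein then binds in front of biosynthetic genes of many pathways at once, so that enzymes for histidine or arginine can be raised by a lack of either. Several of the pathways have regulators of their own as well, such as Leu3 for leucine and branched-chain synthesis, Lys14 for lysine and the ArgR complex, which represses arginine synthesis when arginine is plentiful. Many of the enzymes of leucine, isoleucine, valine, lysine and arginine synthesis work in mitochondria. Because Gcn4 is controlled mainly at translation, the amount of its mRNA does not measure its activity.

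Values are log2 intensities as deposited by the authors, after Robust Multichip Average normalisation across the arrays, whose medians lay between 9.04 and 9.10. Each log2 change subtracts the condition with less oxygen from that with more, and intermediate oxygen denotes the average of the group means at 0.5, 1 and 2.8%. Genes were called at a Benjamini-Hochberg adjusted p under 0.01 in limma, from 1 fit of all 22 arrays. An alpha strain should express the alpha pheromone gene MF(ALPHA)1, whose group means lay between 12.52 and 14.12, and not the a-cell receptor gene STE2, which lay between 6.83 and 7.49. The cell wall gene DAN1, a marker of anaerobic cells, averaged 13.34 at 0% oxygen and at most 4.92 at any other level. Because RNA of whole cultures was measured, a change in every cell and a change in some of the cells cannot be told apart.

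How many of the biosynthetic genes were called, beside the share of all genes, depended on the fit. In the moderated F test over the 5 levels 16 of 39 were called (41%), against 60% of all genes. With array weights 30 were called (76.9%), against 77.7% of all genes. Without replicate 4 at 2.8% and replicate 3 at 20.9%, described below and left out after the data were seen, 25 were called (64.1%), against 61.8%. With the replicate number as a block the shares were 28.2% of members and 47.8% of all genes. With array medians subtracted they were 35.9% and 60.2%, without the 2 directly spun samples 33.3% and 59.4%, and after cyclic loess 46.2% and 58.6%. The 16 of the first fit were HIS4, LEU2, LEU4, LEU9, ILV3, ILV5, LYS12, TRP4, ARO1, ARO3, ARO7, ARG1, ARG3, ARG7, ARG8 and GCN4. By pathway that was 1 of 7 histidine genes, 3 of 4 leucine genes, 2 of 5 isoleucine-valine genes, 1 of 7 lysine genes, 1 of 4 tryptophan genes, 3 of 5 genes of the shikimate group and 4 of 6 arginine genes. The group means of a member spanned 0.43 log2 units in the median, against 0.49 over all genes, and 3 members (7.69%) spanned at least 1 unit, against 16% of all genes. The highest group mean lay at 0% for 15 members and at 20.9% for another 15, and at 0.5, 1 and 2.8% for 4, 1 and 4 of them. Over all genes 34.6% were highest at 0% and 30.5% at 20.9% oxygen.

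**Figure D1:**
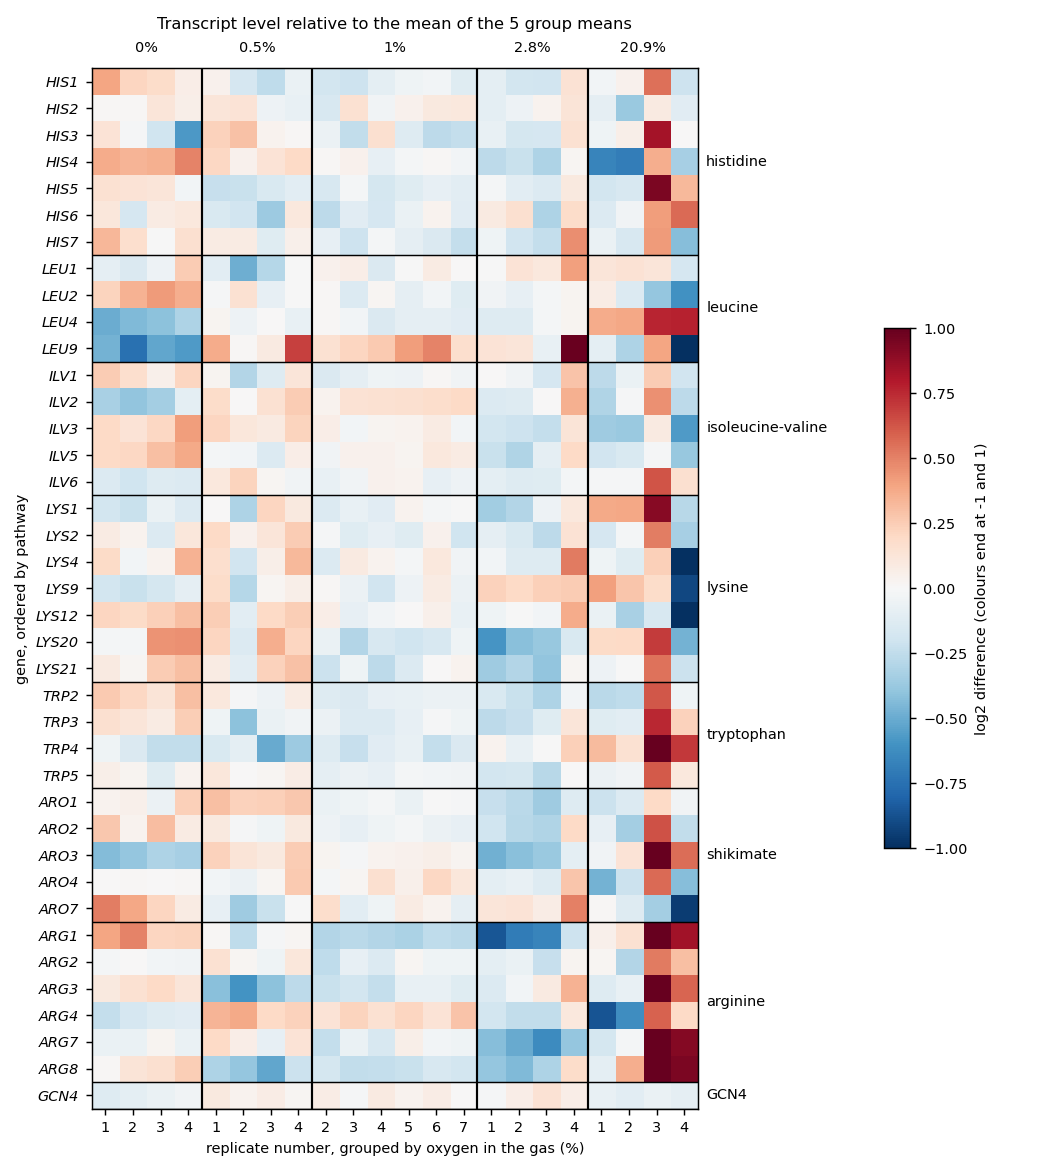
Level of each of the 39 genes (rows, by pathway) in each of the 22 arrays (columns, by oxygen level and replicate number) as a log2 difference from the gene's mean of the 5 group means; red is higher, blue lower, and colours end at -1 and 1. Replicate 3 at 20.9% and replicate 4 at 2.8% oxygen are red in most rows, and the 6 columns at 1% are pale.

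Between 20.9 and 0% oxygen 4 of 39 members were higher at 20.9% (LEU4, ILV6, TRP4 and ARO3), against 21.9% of all genes, and 6 were lower (HIS4, LEU2, ILV3, ILV5, LYS12 and ARO7), against 28.6% of all genes. None of the 39 was both called and changed at least 2-fold, against 12.3% of all genes. The median log2 change over the members was 0.00, against -0.07 over all genes, and the median size of the change was 0.22 against 0.35. When only the arrays of these levels were fitted, 2 members were higher (LEU4 and TRP4; background 16.6%) and 3 lower (LEU2, ILV3 and ILV5; background 19.2%), so that the calls of HIS4, ILV6, LYS12, ARO3 and ARO7 rested on the spread estimated from all 5 levels. After cyclic loess between arrays the split of calls was 10 higher and 5 lower, against 1405 higher and 1240 lower of all 5449 genes.

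Between intermediate oxygen and 0% 4 members were higher (LEU4, LEU9, ILV2 and GCN4), against 15.8% of all genes, and 4 were lower (HIS4, LEU2, ILV5 and ARG1), against 17.3%. More members were called here when the arrays at 20.9% oxygen were not in the fit. With the arrays of 0 to 2.8% alone in the fit 7 members were higher (LEU4, LEU9, ILV2, LYS9, ARO3, ARG4 and GCN4; background 17.9%). In that fit 12 were lower (HIS1, HIS4, HIS5, LEU2, ILV3, ILV5, LYS20, TRP2, TRP3, ARG1, ARG3 and ARG8; background 20.1%).

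Between 20.9% and intermediate oxygen 8 members were higher at 20.9% (LEU4, LYS1, TRP4, ARO3, ARG1, ARG3, ARG7 and ARG8), against 21.6% of all genes, and 3 were lower (ILV3, LYS12 and GCN4), against 26.1%. After cyclic loess 14 of 39 members were higher and 0 lower, against 1326 higher and 1166 lower of all 5449 genes. The log2 change of GCN4 turned to 0.05 in that fit. The 3 comparisons share arrays and are not independent of each other.

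**Figure D2:**
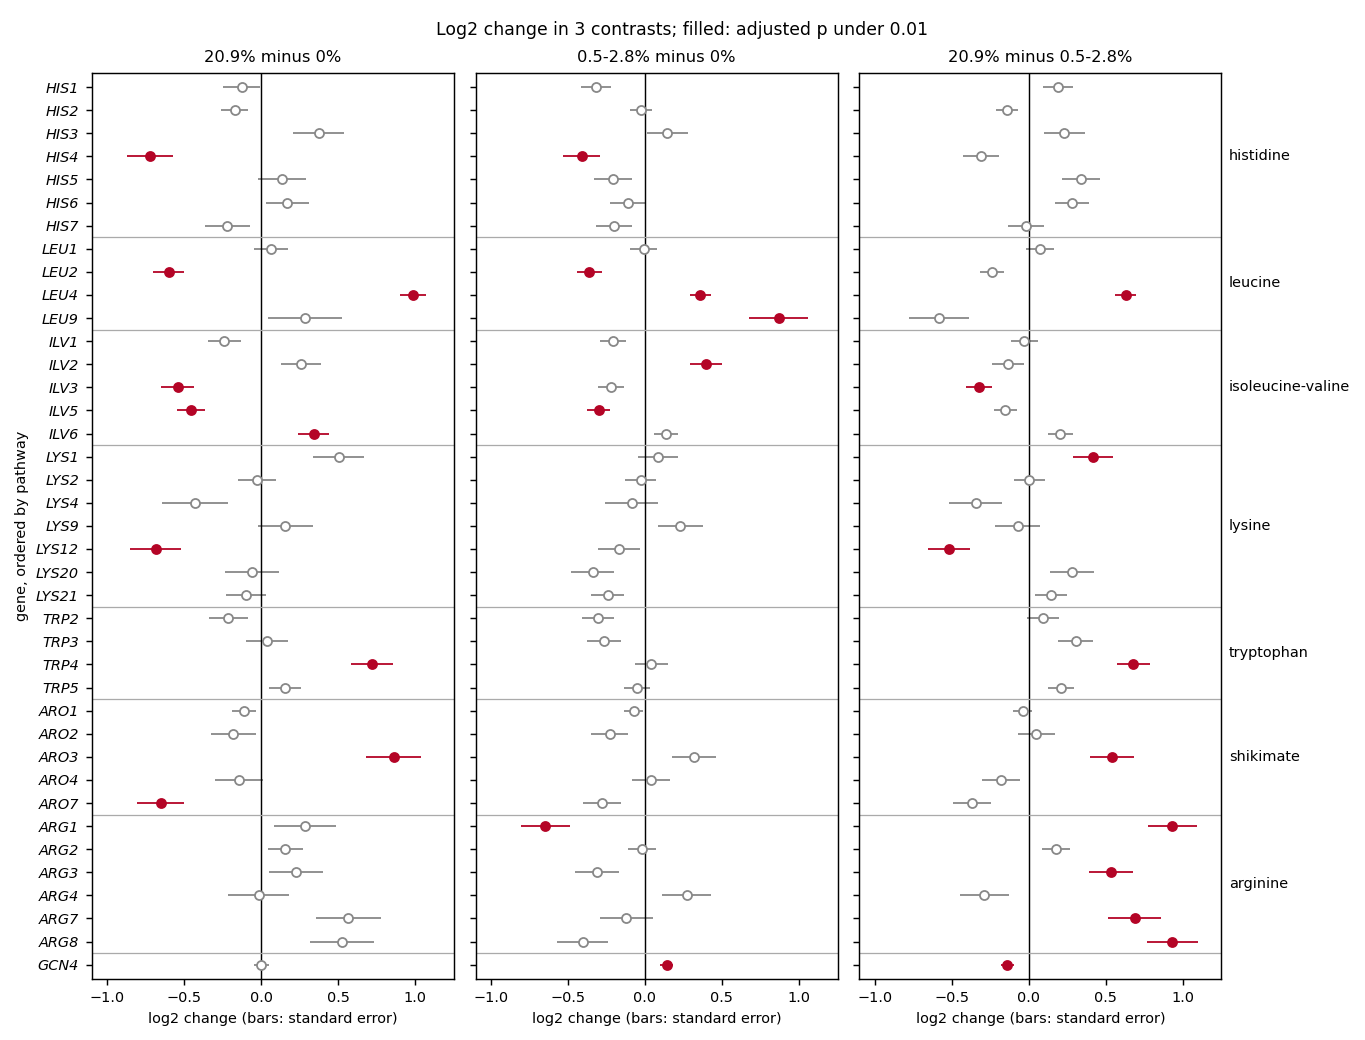
Log2 change with its standard error (x axis) of each of the 39 genes (y axis, by pathway) for 20.9% minus 0%, 0.5 to 2.8% minus 0%, and 20.9% minus 0.5 to 2.8% oxygen; filled red points had a limma adjusted p under 0.01. LEU4 is filled and to the right in all 3 panels, and 4 of 6 arginine genes are filled and to the right in the third. Of these, ARG3 and ARG7 lost their calls without replicate 3 or replicate 4 at 20.9%, and with array weights. The small fall of GCN4 in the third panel became a rise of 0.05 after cyclic loess. Standard errors come from a variance pooled over all levels and are too small for comparisons with 20.9% in genes that varied most there.

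Between the intermediate levels few members were called in the fit of all arrays with equal weight. Of 39 members 0 were called between 1 and 0.5% oxygen in limma (2 had an unadjusted p under 0.05), against 0.165% of all genes, and 0 between 2.8 and 1% (3 unadjusted), against 1.71%. Between 2.8 and 0.5% only ARO1 was called, against 5.67% of all genes, while 13 members had an unadjusted p under 0.05. The shares of all genes hold for adjusted p, and none is given for the unadjusted counts, so these cannot be set against a background. With array weights these counts were 8 (20.5%, against 20.4% of all genes) between 1 and 0.5%, 10 (25.6%, against 15.8%) between 2.8 and 1% and 19 (48.7%, against 31.9%) between 2.8 and 0.5%. Without the 2 outlying arrays 7 members (17.9%, against 6.92%) differed between 2.8 and 0.5%. ARO1 encodes the large enzyme that carries out the middle steps of the shikimate pathway, and its mean was 11.79 at 2.8% and 12.30 at 0.5% oxygen. The difference was -0.51 (standard error 0.08, adjusted p = 0.00019). Against 0% oxygen 2 members were called at 0.5% (LEU4 and LEU9; background 26.9%), 4 at 1% (LEU2, LEU4, LEU9 and ILV2; background 28.6%) and 9 at 2.8% (HIS4, LEU2, LEU4, LEU9, ILV3, ILV5, LYS20, ARO1 and ARG1; background 25.7%). At 20.9% oxygen 8 members differed from 0.5% (background 35.2%), 6 from 1% (background 42.7%) and 7 from 2.8% (background 40.5%). LEU4, TRP4, ARG1 and ARG8 were called in all 3 of these comparisons, which share the arrays at 20.9%. The share of all genes called in all 3 is not given, so these genes cannot be said to stand out.

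GCN4 (YEL009C) had a high intensity at every level and moved little. Its log2 intensity was 13.62, 13.64, 13.68 and 13.71 at 0% and 13.84, 13.78, 13.82 and 13.76 at 0.5% oxygen. At 1% the 6 arrays ran from 13.74 over a median of 13.80 to 13.84. At 2.8% it was 13.74, 13.81, 13.89 and 13.81, and at 20.9% it was 13.67, 13.64, 13.68 and 13.66. The intermediate arrays did not overlap with those at either end. GCN4 changed by 0.14 for intermediate oxygen minus 0% (standard error 0.04, adjusted p = 0.0069) and -0.14 for 20.9% minus intermediate (standard error 0.04, adjusted p = 0.0051), a fold of 1.10 each, and the second of these became 0.05 (adjusted p = 0.36) after cyclic loess. The first of these was lost in 7 of the 22 fits that left out 1 array, and without the 2 directly spun samples (adjusted p = 0.012). The second was lost without replicate 1, 2 or 4 at 20.9%, with array weights (adjusted p = 0.019) and after subtraction of array medians (adjusted p = 0.013). Between 20.9 and 0% oxygen the change was 0.00 (adjusted p = 0.99), and 0.19 (adjusted p = 0.0044) after cyclic loess. The highest value of any probe set was 14.64.

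Histidine is made in a single chain of reactions, and HIS4 encodes the enzyme of several of its steps. HIS4 (YCL030C) had log2 intensities of 12.87, 12.84, 12.86 and 13.00 at 0% and 12.71, 12.55, 12.63 and 12.70 at 0.5% oxygen. The 1% arrays ran from 12.42 to 12.54 with a median of 12.50. It had 12.24, 12.28, 12.19 and 12.52 at 2.8% and 11.84, 11.81, 12.86 and 12.17 at 20.9% oxygen. The group mean was lower at each higher oxygen level, but replicate 3 at 20.9% lay as high as the anaerobic arrays, so those groups overlapped. HIS4 changed by -0.72 for 20.9% minus 0% (standard error 0.15, adjusted p = 0.00025), 1.65-fold lower, and by -0.41 for intermediate oxygen minus 0% (standard error 0.12, adjusted p = 0.0076). Leaving out replicate 3 moved the first of these to -0.95, and the second stayed called in 10 of the 22 fits that left out 1 array. None of the other 6 histidine genes was called in these comparisons in the fit of the deposited values. HIS1, for the enzyme that commits to the pathway, was at -0.32 for intermediate oxygen minus 0% with an adjusted p of 0.011. HIS3, whose product is the dehydratase of the pathway, was at 0.37 for 20.9% minus 0% (adjusted p = 0.055), and was called higher after cyclic loess. HIS2, HIS5, HIS6 and HIS7 lay between -0.22 and 0.17 in that comparison.

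Leucine synthesis branches from that of valine at the step of alpha-isopropylmalate synthase, which is encoded by LEU4 and LEU9. LEU4 (YNL104C) had log2 intensities of 12.29, 12.35, 12.38 and 12.48 at 0% and 12.82, 12.74, 12.79 and 12.71 at 0.5% oxygen. At 1% LEU4 ran from 12.65 to 12.80 with a median of 12.70. It had 12.66, 12.66, 12.77 and 12.81 at 2.8% and 13.16, 13.18, 13.55 and 13.56 at 20.9% oxygen. LEU4 thus had 3 separate ranges, with no overlap of the 20.9% arrays, the intermediate arrays and the 0% arrays. LEU4 changed by 0.99 for 20.9% minus 0% (standard error 0.08, adjusted p = 1.9e-09), a 1.98-fold difference and the largest among the 39 members. The change was 0.36 for intermediate oxygen minus 0% (standard error 0.07, adjusted p = 0.00014) and 0.63 for 20.9% minus intermediate (standard error 0.07, adjusted p = 1.0e-07). These calls held in all alternatives tried.

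LEU9 was highest at the intermediate levels. Its group means were 8.11 at 0%, 8.97 at 0.5%, 8.97 at 1%, 8.98 at 2.8% and 8.39 at 20.9% oxygen. The intermediate arrays did not overlap with the 0% arrays, and the log2 change between them was 0.87 (standard error 0.19, adjusted p = 0.0010). For 20.9% minus intermediate it was -0.58 with an adjusted p of 0.014, and this rested on single arrays, with -0.29 (adjusted p = 0.15) without replicate 4 and -0.81 (adjusted p = 0.0015) without replicate 3 at 20.9%. LEU2, for the isopropylmalate dehydrogenase, was lower with oxygen, with changes of -0.36 at intermediate levels (adjusted p = 0.00096) and -0.60 at 20.9% (adjusted p = 2.6e-05), each against 0%. LEU1, for the isomerase between these steps, had changes of -0.01 and 0.06 in these comparisons and was not called.

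The enzymes shared by isoleucine and valine synthesis did not move as a group. ILV2 encodes the catalytic and ILV6 the regulatory subunit of acetolactate synthase, ILV5 the reductoisomerase and ILV3 the dehydratase that follow it. ILV3 (YJR016C) had log2 intensities of 12.69, 12.64, 12.70 and 12.92 at 0% and 12.72, 12.61, 12.59 and 12.72 at 0.5% oxygen. At 1% ILV3 ran from 12.47 to 12.58 with a median of 12.53. It had 12.32, 12.29, 12.26 and 12.63 at 2.8% and 12.14, 12.12, 12.59 and 11.93 at 20.9% oxygen. All 20.9% arrays lay below all 0% arrays, and the group mean was lower at each higher level. ILV3 changed by -0.54 for 20.9% minus 0% (standard error 0.11, adjusted p = 0.00016). The change was -0.32 for 20.9% minus intermediate (adjusted p = 0.0027), a call that was lost without replicate 1, 2 or 4 at 20.9% and after cyclic loess (-0.16, adjusted p = 0.094).

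ILV5 changed by -0.45 for 20.9% minus 0% (adjusted p = 0.00020), a call lost after cyclic loess, and by -0.30 for intermediate oxygen minus 0% (adjusted p = 0.0020). The subunits of acetolactate synthase went the other way. ILV2 rose by 0.39 at intermediate oxygen against 0% (adjusted p = 0.0041), a call lost without replicate 1, 2 or 3 at 0%, and ILV6 rose by 0.34 at 20.9% against 0% (adjusted p = 0.0055). The ILV6 change was 0.20 and not called without replicate 3 at 20.9% oxygen, and its call was also lost when any 1 of the 0% arrays was left out. ILV1, the threonine deaminase that feeds isoleucine alone, was at -0.24 for 20.9% minus 0% and was not called.

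**Figure D3:**
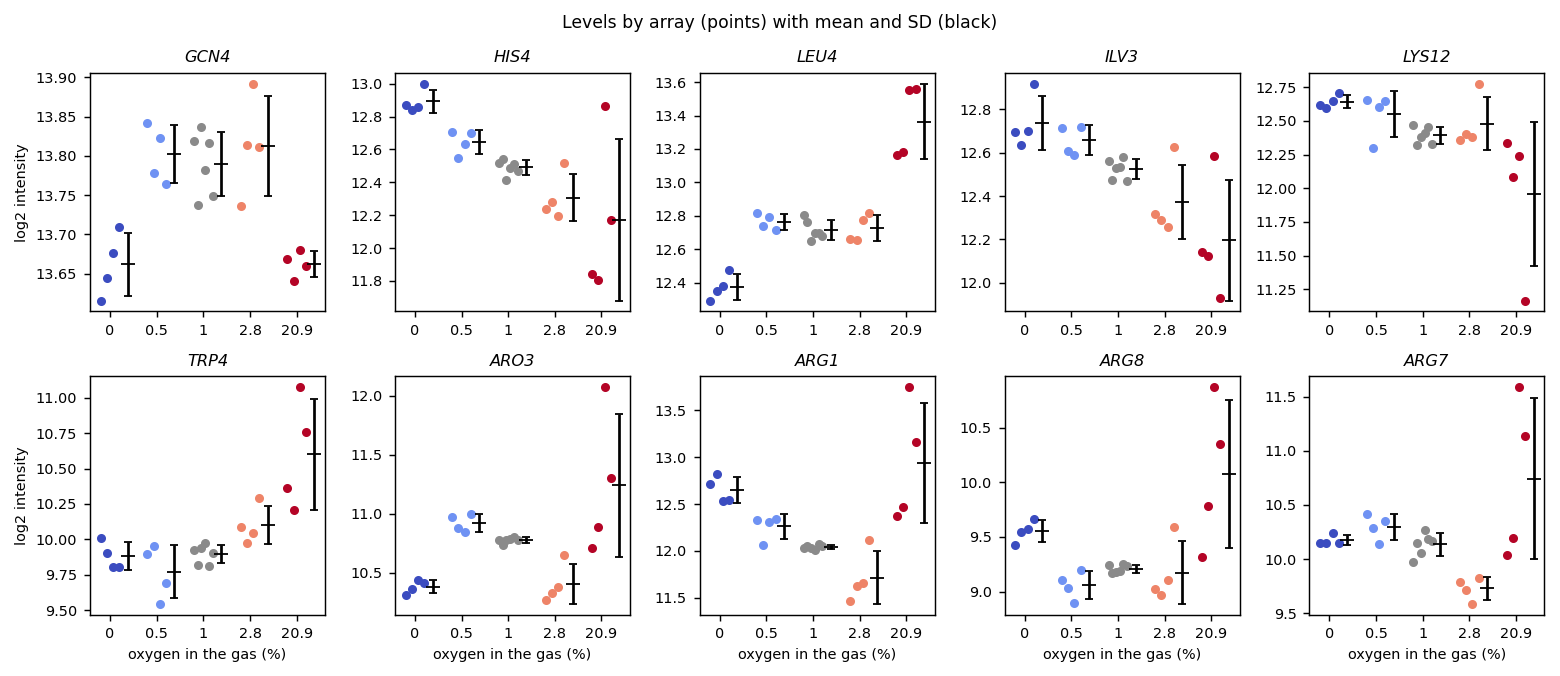
Log2 intensity (y axis) by oxygen in the gas (x axis) of GCN4 and of the 9 enzyme genes given array by array; each point is an array and the black mark and bar are the mean and SD (n = 4, and 6 at 1%). The y axes differ in range; the SD at 20.9% reaches 0.74 in ARG7, while that of GCN4 is 0.02.

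Lysine is made through homocitrate and alpha-aminoadipate in fungi, and LYS12 encodes homoisocitrate dehydrogenase of that route. LYS12 (YIL094C) had log2 intensities of 12.62, 12.60, 12.65 and 12.71 at 0% and 12.65, 12.30, 12.60 and 12.65 at 0.5% oxygen. At 1% LYS12 ran from 12.32 to 12.47 with a median of 12.40. It had 12.36, 12.40, 12.38 and 12.77 at 2.8% and 12.34, 12.08, 12.24 and 11.17 at 20.9% oxygen. All 20.9% arrays lay below the 0% arrays, replicate 4 by the most. The log2 change for 20.9% minus 0% was -0.69 (standard error 0.17, adjusted p = 0.0014) and -0.42, still called, without that replicate. For 20.9% minus intermediate it was -0.52 (adjusted p = 0.0026), and -0.25, no longer called, without replicate 4, and the call was lost after cyclic loess as well (-0.36).

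LYS1, which encodes the saccharopine dehydrogenase that releases lysine, was at 0.42 for 20.9% minus intermediate oxygen, with an adjusted p of 0.0097 that passed in 3 of the 22 fits with 1 array left out, and a change of 0.23 without replicate 3 at 20.9%. The other 5 lysine genes were not called in the 3 main comparisons. Among them LYS4, for homoaconitase, was at -0.43 and LYS9, for the other saccharopine dehydrogenase, at 0.16 for 20.9% minus 0%. LYS2, for aminoadipate reductase, and the homocitrate synthase genes LYS20 and LYS21 lay between -0.10 and -0.03. LYS20 was called at 2.8% against 0%, with -0.60 (adjusted p = 0.0099), and after cyclic loess it was called higher at 20.9% than at intermediate oxygen.

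TRP4 encodes the anthranilate phosphoribosyltransferase of tryptophan synthesis. TRP4 (YDR354W) had log2 intensities of 10.01, 9.90, 9.81 and 9.80 at 0% and 9.89, 9.96, 9.54 and 9.69 at 0.5% oxygen. At 1% TRP4 ran from 9.81 to 9.98 with a median of 9.91. It had 10.09, 9.98, 10.05 and 10.29 at 2.8% and 10.36, 10.20, 11.08 and 10.76 at 20.9% oxygen. The 20.9% arrays lay above all 0% arrays and overlapped with those at 2.8% through replicate 2 at 20.9% and replicate 4 at 2.8%. TRP4 changed by 0.72 for 20.9% minus 0% (standard error 0.13, adjusted p = 9.9e-05) and 0.68 for 20.9% minus intermediate (standard error 0.11, adjusted p = 2.0e-05). The other 3 measured tryptophan genes were not called in any comparison with 20.9% in the fit of the deposited values. TRP5 was called higher at 20.9% against 0% and against intermediate oxygen after cyclic loess, and TRP3 against intermediate oxygen. For 20.9% minus 0%, TRP2 (anthranilate synthase) was at -0.21, TRP3 (its partner subunit, which also carries a later activity) at 0.04 and TRP5 (tryptophan synthase) at 0.16.

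The shikimate pathway leads to chorismate, from which all 3 aromatic amino acids are made. It opens with DAHP synthase, and ARO3 and ARO4 encode the forms that are inhibited by phenylalanine and by tyrosine. ARO3 (YDR035W) had log2 intensities of 10.31, 10.36, 10.44 and 10.42 at 0% and 10.98, 10.88, 10.85 and 11.00 at 0.5% oxygen. At 1% ARO3 ran from 10.73 to 10.81 with a median of 10.78. It had 10.27, 10.33, 10.38 and 10.65 at 2.8% and 10.71, 10.89, 12.07 and 11.30 at 20.9% oxygen. The order of its group means did not follow that of oxygen. The levels at 0 and 2.8% were alike and low, the 0.5 and 1% arrays lay above all arrays of both, and the 20.9% arrays spread over 1.36 log2 units. ARO3 changed by 0.86 for 20.9% minus 0% (standard error 0.18, adjusted p = 0.00027) and 0.58, still called, without replicate 3. For 20.9% minus intermediate it was 0.54 (adjusted p = 0.0027), and the call was lost without replicate 3 (0.26, adjusted p = 0.015) or replicate 4 (0.52, adjusted p = 0.010). The difference between 0.5 and 0% was 0.54 (adjusted p = 0.019).

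ARO7, for chorismate mutase, which directs chorismate to phenylalanine and tyrosine, averaged 7.78 at 20.9% and 8.43 at 0% oxygen, with a difference of -0.65 (standard error 0.15, adjusted p = 0.00094) and no overlap between the groups. ARO1, ARO2 (chorismate synthase) and ARO4 lay between -0.18 and -0.11 in this comparison and were not called.

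Arginine synthesis held the widest spans among the members. Its acetylated intermediates are made in mitochondria by ARG2, ARG7 and ARG8, ornithine is turned to citrulline by ARG3, and ARG1 and ARG4 complete the arginine molecule. ARG1 (YOL058W), for argininosuccinate synthetase, had log2 intensities of 12.71, 12.82, 12.53 and 12.54 at 0% and 12.33, 12.07, 12.31 and 12.34 at 0.5% oxygen. At 1% ARG1 ran from 12.01 to 12.07 with a median of 12.04. It had 11.46, 11.63, 11.66 and 12.11 at 2.8% and 12.37, 12.47, 13.75 and 13.16 at 20.9% oxygen. The group mean was lower at each level up to 2.8% and highest at 20.9%. The intermediate arrays lay below all arrays at 0% and at 20.9%. ARG1 changed by -0.65 for intermediate oxygen minus 0% (standard error 0.16, adjusted p = 0.0026) and 0.93 for 20.9% minus intermediate (standard error 0.16, adjusted p = 5.0e-05). The first of these was lost without replicate 1 or 2 at 0%. Against 2.8% alone the change at 20.9% was 1.22.

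ARG8 (YOL140W), for acetylornithine aminotransferase, had log2 intensities of 9.43, 9.54, 9.58 and 9.66 at 0% and 9.10, 9.03, 8.90 and 9.20 at 0.5% oxygen. At 1% ARG8 ran from 9.17 to 9.25 with a median of 9.21. It had 9.03, 8.97, 9.11 and 9.60 at 2.8% and 9.31, 9.78, 10.87 and 10.35 at 20.9% oxygen. Its lowest 20.9% array lay within the range of the 2.8% arrays. The SD of ARG8 was 0.68 at 20.9% and at most 0.29 at the other levels. Standard errors pooled over all levels are therefore too small for its comparisons with 20.9%. ARG8 changed by 0.93 for 20.9% minus intermediate (standard error 0.17, adjusted p = 7.2e-05) and 0.53 for 20.9% minus 0% (adjusted p = 0.033). This last change was 0.26 without replicate 3 at 20.9% and 0.78, and called, without replicate 1.

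ARG7 (YMR062C), for ornithine acetyltransferase, had log2 intensities of 10.15, 10.15, 10.24 and 10.15 at 0% and 10.42, 10.28, 10.13 and 10.35 at 0.5% oxygen. At 1% ARG7 ran from 9.97 to 10.27 with a median of 10.16. It had 9.79, 9.71, 9.59 and 9.83 at 2.8% and 10.04, 10.20, 11.59 and 11.13 at 20.9% oxygen. The arrays at 2.8% lay below all others, and replicates 3 and 4 at 20.9% lay above all others. The log2 change for 20.9% minus intermediate was 0.69 (standard error 0.17, adjusted p = 0.0017), a call that ended without replicate 3 (0.40) or without replicate 4 (0.55) at 20.9%. ARG3, for ornithine carbamoyltransferase, was at 0.54 in this comparison (adjusted p = 0.0028), and at 0.30 without replicate 3 and 0.46 without replicate 4, neither of which was called. ARG2, for the acetylglutamate synthase, was at 0.18 and ARG4, for argininosuccinate lyase, at -0.29, and neither was called. With array weights the changes of ARG7 and ARG3 in this comparison were 0.36 and 0.35, and neither was called.

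These genes varied more between arrays at 20.9% oxygen than at the other levels. The SD of a member over the arrays of a level had a median of 0.086 at 0%, 0.12 at 0.5%, 0.065 at 1%, 0.17 at 2.8% and 0.41 at 20.9% oxygen. Over all genes the medians were 0.117, 0.116, 0.0891, 0.153 and 0.192 at these levels. The SD was widest at 20.9% for 36 of 39 members (92.3%), against 47.8% of all genes. The standard errors given with the changes rest on a variance pooled over all levels. For these 36 members they understate the spread at 20.9%, and p-values of comparisons with that level are too small.

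The arrays at 20.9% oxygen differed in the whole group of biosynthetic genes. In replicate 3, 38 of 39 members lay above their group mean (97.4%), against 47.2% of all genes, and 32 were the highest of the 4 arrays (82.1%), against 18.5% of all genes. The median deviation of a member from its group mean was 0.49 there, against -0.01 over all genes. It was -0.17 in replicate 1, -0.11 in replicate 2 and -0.12 in replicate 4. The SD of GCN4 over these arrays was 0.02.

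The pathways did not follow 1 pattern over the 4 arrays. Arginine genes deviated by a median of -0.63 in replicate 1, -0.44 in replicate 2, 0.78 in replicate 3 and 0.25 in replicate 4. Lysine genes deviated by a median of 0.51 in replicate 3 and of -0.63 in replicate 4. Replicate 4 also stood apart over all genes. The SD of its log2 difference from another array was 0.47 to 0.52, against 0.25 to 0.34 among the others. The median deviation over all genes is not given for replicate 4, so its pathway medians cannot be set against a background. Tryptophan genes stood at 0.52 and the shikimate group at 0.65 in replicate 3. Leucine genes stood at 0.13 there.

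At 2.8% oxygen replicate 4 stood apart in the members by less, and it differed over all genes as well. The SD of its log2 difference from another array over all genes was 0.42 to 0.47, against 0.14 to 0.21 among the others. In replicate 4, 38 of 39 members were the highest of the 4 arrays (97.4%), against 40% of all genes, with a median deviation of 0.24, and GCN4 was the exception. The medians of the other 3 arrays were -0.06, -0.07 and -0.10. Replicate 4 is 1 of the 2 directly spun samples, and replicate 2, the other, had the median of -0.07. Whether the way of collection, the culture or the array moved these genes was not tested. Without replicate 4 at 2.8% and replicate 3 at 20.9% together, 25 members were called by the F test (64.1%, against 61.8% of all genes). This alternative was chosen after the data were seen. The counts were then 3 higher and 12 lower for 20.9% minus 0%, and 5 higher and 8 lower for 20.9% minus intermediate oxygen. For intermediate oxygen minus 0% they were 5 higher and 14 lower. No shares of all genes are given for these directional counts, so they are not read as a result about the members.

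**Figure D4:**
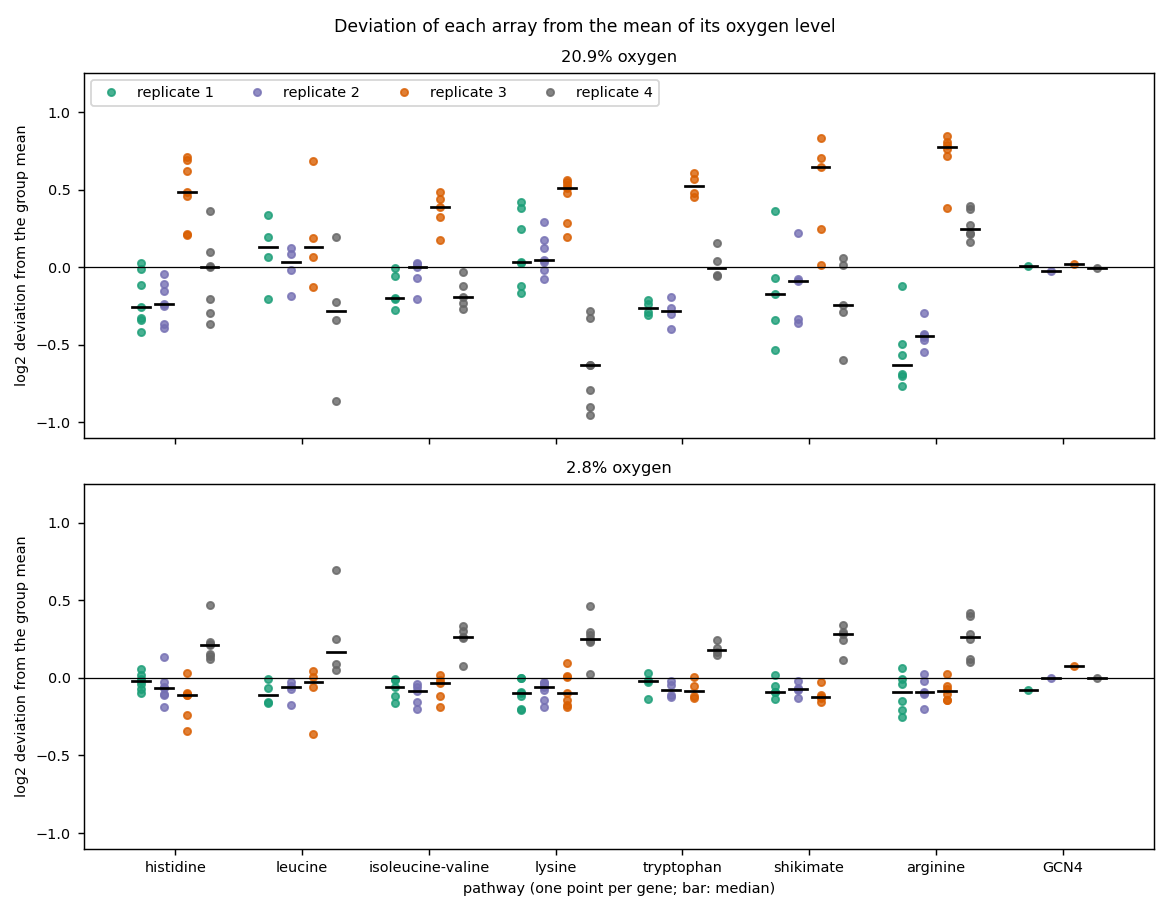
Log2 deviation of each gene from its mean over the 4 arrays of the level (y axis) by pathway (x axis), at 20.9% oxygen (upper panel) and 2.8% oxygen (lower panel); each point is a gene in an array, colours are replicates and bars are medians. At 20.9% replicate 3 lies above 0 in nearly all genes and replicate 4 is low in lysine and high in arginine genes; at 2.8% replicate 4 lies above 0.

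Among the members 3 pairs of genes encode isoenzymes of the opening step of a pathway, and their balance was compared as the log2 difference between the transcripts in each array. Different probe sets cannot be compared in level, so only changes of this difference are given, with an exact two-sided permutation test over arrays, adjusted over 9 tests. The 14 intermediate arrays formed 1 group here. The balance of LEU4 over LEU9 was 0.70 higher at 20.9% than at 0% oxygen (exact p = 0.029, the smallest that 4 against 4 arrays allow, adjusted p = 0.043), and 0.35 higher without replicate 4 at 20.9%. It was 0.51 lower at intermediate oxygen than at 0% (difference -0.51, exact p = 0.0036, adjusted p = 0.011) and 1.21 higher at 20.9% than at intermediate oxygen (exact p = 0.00033, the smallest possible here, adjusted p = 0.0015).

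The balance of ARO3 over ARO4 was 1.00 higher at 20.9% than at 0% (exact p = 0.029, adjusted p = 0.043), 0.29 higher at intermediate oxygen than at 0% (exact p = 0.014, adjusted p = 0.032) and 0.72 higher at 20.9% than at intermediate oxygen (exact p = 0.00033, adjusted p = 0.0015). The intermediate levels were not alike in this pair: against 0% the balance was 0.50 higher at 0.5%, 0.31 at 1% and 0.04 at 2.8% oxygen. For the homocitrate synthases LYS20 and LYS21 the differences were 0.04 (exact p = 0.80, adjusted p = 0.80), -0.10 (exact p = 0.22, adjusted p = 0.25) and 0.14 (exact p = 0.15, adjusted p = 0.20), with SDs over arrays of 0.23 at 20.9%, 0.14 at intermediate oxygen and 0.15 at 0%. Arrays of 1 chemostat were counted as separate in these tests. The difference for LEU4 and LEU9 at 20.9% varied most, with an SD of 0.72, and LEU9 itself was at 7.53 in replicate 4 and at 9.08 in replicate 3.

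**Figure D5:**
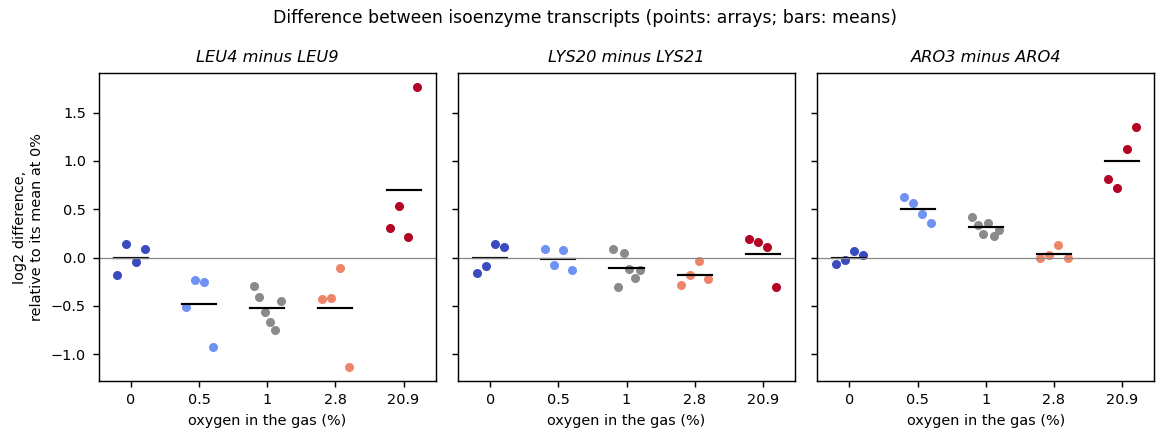
Log2 difference between the transcripts of an isoenzyme pair in each array (points) and its mean (bars), relative to the mean at 0% (y axis), by oxygen in the gas (x axis). LEU4 over LEU9 lies below 0 at every intermediate array and above 0 at 20.9%; ARO3 over ARO4 is highest at 20.9%, and LYS20 over LYS21 stays within the spread of its arrays.

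Other genes of amino acid synthesis were taken from lists that were chosen with earlier results known. For 20.9% minus 0% oxygen the share of all genes called was 21.9% higher and 28.6% lower, against which their counts are to be read. Of 9 further genes of these same pathways, BAT2 and LEU5 were higher at 20.9% than at 0% oxygen, and 0 were lower. BAT2, the cytosolic branched-chain aminotransferase, averaged 11.27 at 20.9% and 10.19 at 0%, a change of 1.07 (standard error 0.14). BAT1, its mitochondrial counterpart, was at -0.22 and was not called. Of 8 pathway regulators ARG82, PHO2 and RTG2 were higher and LYS14, the activator of lysine genes, was lower (-0.66). Of 15 genes that act on GCN4 translation or stability 0 were higher and 7 were lower (GCN1, GCN20, GCN3, SUI3, GCD1, GCD6 and GCD11).

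Of 40 genes of other amino acid pathways 24 were called by the F test (60%, the share of all genes), and 6 (15%) were higher and 17 (42.5%) lower at 20.9% than at 0%. Their median size of change was 0.45, against 0.22 among the members and 0.35 over all genes. For intermediate oxygen minus 0% it was 0.23, against 0.22 and 0.19. STR3, for cystathionine beta-lyase, rose by 2.57, and SER3, for the enzyme that commits to serine synthesis, was at -1.69. SER33, its isoenzyme, was at -1.08, SER2 at -1.06 and MET14, of sulphate assimilation, at -1.05, while GDH3, a glutamate dehydrogenase, was at 1.14 and AAT1, the mitochondrial aspartate aminotransferase, at 1.05. In replicate 3 at 20.9% oxygen these 40 genes deviated by a median of 0.21, and 29 of them lay above their group mean. PCL5, whose product promotes the breakdown of Gcn4, was singled out after its values were seen: it had 8.26, 8.49, 10.17 and 9.36 in the 4 arrays at 20.9% oxygen, highest in the same array as most members. Of the 15 genes that act on GCN4 only PCL5 was called higher for 20.9% minus intermediate oxygen (background 21.6%), and 6 were lower (background 26.1%). Values per array of the others on that list are not given.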

How the data were processed

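The authors extracted the scans of GeneChip Yeast Genome 2.0 arrays, 1 per sample, and deposited log2 intensities from the Robust Multichip Average method, which corrects background, equalises the distributions of all arrays and summarises each probe set. The table holds 5716 probe sets in 22 arrays, used as deposited; another 1% sample had been left out by the authors. Probe sets were named through the platform's gene table and the S. cerevisiae reference, 12 symbols being updated; 218 named no gene. For 47 genes with several probe sets the most specific and then the brightest was kept, which left 5449 genes. All members were read from a probe set of 1 transcript.

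Groups are the 5 oxygen levels of the labels. One limma model (limma 3.58.1 in R 4.3.3; 17 residual degrees of freedom) gave moderated F tests and contrasts, with Benjamini-Hochberg adjustment over 5449 genes for each comparison and a threshold of 0.01, as in the study's methods. Isoenzyme pairs were tested by exact permutation in Python 3.11.15 with NumPy 2.4.6. Precision is limited by the number of arrays and of cultivations. The model was tested on simulated data, but the outcome is not given here, so no error rate can be taken from it. All members are named; values per array are given for GCN4, for the called member of each pathway with the widest span of group means, and for further members with a span of at least 1. Other genes come with values only from fixed lists, if called for 20.9% minus 0% with a change of at least 1; exceptions are ARG82, PHO2, RTG2, LYS14, BAT1, LEU5, the genes of GCN4 translation and the markers, named without regard to size. The members and lists were chosen with earlier results of these data known. Alternatives were the replicate number as a block, other variance models, array weights, only the levels compared, other handling of probe sets, 2 normalisations, a filter on dim genes, and arrays left out. Protein data and fluxes of the study were not analysed here.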

Additional observations from a re-analysis of the deposited data

Results flagged for a closer look

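Among 55 groups of arrays examined (10 genes and the median deviation of all members, at 5 levels), 7 held an array far from the rest by Dixon's criterion, of which chance would give about 1 in 20 groups. In replicate 3 at 20.9% oxygen the median deviation over the members was 0.49, against -0.17 to -0.11 in the other arrays. In replicate 4 at 2.8% it was 0.24, against -0.10 to -0.06 in the others, and the same array stood apart in ILV3 (12.63, against 12.26 to 12.32) and in LYS12 (12.77, against 12.36 to 12.40). Replicate 2 at 0.5% oxygen was low in LYS12 (12.30, against 12.60 to 12.65) and in ARG1 (12.07, against 12.31 to 12.34). Replicate 3 at 0% had 10.24 for ARG7, against 10.15 in the other 3 arrays, a distance of under 0.1 log2 units.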

How the results depend on the processing

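Counts of called members moved by over 1.5 times under the following alternatives. With array weights, which counted replicate 4 at 20.9% and replicate 4 at 2.8% least (weights of 0.128 and 0.133), the F test called 30 members, 13 were lower at intermediate oxygen than at 0%, and 8, 19 and 10 differed between 1 and 0.5%, 2.8 and 0.5%, and 2.8 and 1% oxygen. When the fit held no other levels than those compared, 2 were higher and 3 lower for 20.9% minus 0%, 7 higher and 12 lower for intermediate minus 0%, and 1, 2 and 2 differed in these 3 comparisons. Cyclic loess gave 10 higher for 20.9% minus 0%, and 14 higher and 0 lower for 20.9% minus intermediate. Without replicate 4 at 2.8% and replicate 3 at 20.9% together, the F test called 25, with 12 lower for 20.9% minus 0%, 14 lower for intermediate minus 0%, 5 higher and 8 lower for 20.9% minus intermediate, 7 between 2.8 and 0.5% and 1 between 2.8 and 1%. Shares or counts of all genes are given above for some of these fits, and member counts without either are not read as results about the members. The cause of these shifts was not tested.

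With 1 array left out the F test called 13 to 23. Calls were 3 to 6 higher and 6 to 10 lower for 20.9% minus 0% (10 without replicate 3 at 20.9%), 2 (without replicate 1, 2 or 3 at 0%) to 5 higher and 2 (without replicate 1, 2 or 4 at 0%) to 8 (without replicate 3 at 20.9%) lower for intermediate minus 0%, and 4 (without replicate 3) to 12 (without replicate 1) higher and 0 (without replicate 4) to 8 (without replicate 3) lower for 20.9% minus intermediate oxygen. They were 0 to 0 between 1 and 0.5%, 1 to 3 (without replicate 3 at 20.9%) between 2.8 and 0.5% and 0 to 0 between 2.8 and 1%. The log2 change of GCN4 for 20.9% minus 0%, 0.00, ran from -0.014 to 0.017 in these fits and was -0.00504 without the 2 arrays together. For 20.9% minus intermediate it was 0.046 after cyclic loess. ARG1 turned to -0.012 for 20.9% minus 0% with array weights. Of 29 called changes, 29 kept their call and direction with variance trend, with all probe sets, with their mean and without the dimmest 25% of genes, 28 after subtraction of array medians and 27 without the 2 directly spun samples. It was 25 with array weights, after cyclic loess and without the 2 arrays together, 23 when no other levels were fitted, and 23 (without replicate 1 or 2 at 0% or replicate 4 at 20.9%) to 29 with 1 array left out.

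Replicate numbers were shared by the levels but did not pair the arrays: deviations of arrays with the same number correlated at -0.59 to 0.58 over 36 pairs of levels and numbers (median 0.05). With the replicate block 21 of the 29 changes stayed called, and those lost were ILV6 for 20.9% minus 0%, HIS4, ILV2 and GCN4 for intermediate minus 0%, and ILV3, LYS1, LYS12 and GCN4 for 20.9% minus intermediate oxygen. In this fit 2 members were higher for intermediate minus 0% and 0 were lower for 20.9% minus intermediate oxygen.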
